A study of Homo sapiens with 11 samples.

Results

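Most of the genes described here encode protein subunits of the mitochondrial respiratory chain and ATP synthase, 13 from the mitochondrial genome and the rest from the nucleus. They were followed in LX-2, a human cell line derived from hepatic stellate cells. Members were chosen by symbol: the 13 mitochondrial protein-coding genes, and nuclear genes by the start of their symbol. The nuclear symbols were NDUFA, B, C, S or V followed by a number, SDHA to SDHD, UQCR, COX4 to COX8 followed by A, B or C, and ATP5. A mean of at least 1 CPM (counts scaled to a library total of 1 M) over the RNA libraries was required and pseudogenes were left out. The counts covered 35303 genes; 174 of them carried such a symbol, of which 68 were pseudogenes and 12 others lay under the limit. This left 94 genes, 13 mitochondrial and 81 nuclear, and all 94 passed the filter on low counts used for testing. Of the nuclear genes 79 encode proteins. The other 2, NDUFV2-AS1 and NDUFA6-DT, are noncoding RNAs that only share the name, and are reported apart.

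The cells, labelled wild type and grown in DMEM with fetal bovine serum, were treated for 24 h in 3 ways. They received PBS (the series' design text calls this medium), HIV-1BaL at an MOI (infectious units per cell) of 0.1, or that virus plus 1 ug per ml of lipoteichoic acid (LTA), which comes from the envelope of Gram-positive bacteria. Each group had 3 RNA-seq libraries, 1 from each of batches 1, 2 and 3, and no library had LTA alone. A ChIP-seq peak list of HIV-1-treated cells was also used; its sample is titled Lx2 but carries the cell line label Lx5. The labels do not say that the libraries came from separate cultures, so p-values reflect the spread of these libraries alone, and that spread may be technical.

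The respiratory chain passes electrons from NADH (complex I) and succinate (complex II) through complexes III and IV to oxygen, and ATP synthase (complex V) uses the resulting proton gradient. Complexes I, III, IV and V mix subunits from both genomes, whereas complex II is wholly nuclear. Mitochondrial mRNAs are cut from long transcripts of both strands of the circular genome, while each nuclear subunit has its own promoter, many of them with sites for the factors NRF1 and GABP (an ETS-family factor). Hepatic stellate cells are known to alter their metabolism when they turn into matrix-producing cells.

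By complex, the coding members were 43 of complex I (7 mitochondrial, 36 nuclear) and 4 of complex II. Complex III had 10 (1 and 9), complex IV 15 (3 and 12, counting NDUFA4 there) and complex V 20 (2 and 18). Complexes were assigned by symbol, so a gene counted, such as COX7A2L in IV or ATP5IF1 in V, need not be a subunit. Genes just inside the limit were NDUFA7 at 1.47 CPM and COX7A1 at 2.04 CPM, and just outside lay NDUFA4L2 at 0.387 CPM and COX6B2 at 0.284 CPM. Where a subunit has a ubiquitous and a tissue-restricted form, the ubiquitous form made up nearly all counts. COX7A2 stood at 202 CPM against COX7A1, the heart and muscle form, at 2.04 CPM; COX6A1 at 90.3 CPM against no count of COX6A2; and COX6B1 at 158 CPM against COX6B2, the testis form. The symbols chosen by rule miss COX4I1 (177 CPM), NDUFAB1 (22.4 CPM), CYC1 (32.4 CPM) and cytochrome c, CYCS (199 CPM), which were followed in a separate list.

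Some mitochondrial genes share bases, which bears on how their reads can be counted, so the shared stretches are shown. The last bases of ATP8 are also the first of ATP6, and the last of ND4L are the first of ND4. Sequences are from the GRCh37 reference mitochondrial genome of 16569 bases, plus strand. The hg19 sequence that the authors aligned to may be another mitochondrial reference. ATP8 is at chrM:8366-8572 and its overlap with ATP6, which runs to base 9207, is in capitals.
ATP8: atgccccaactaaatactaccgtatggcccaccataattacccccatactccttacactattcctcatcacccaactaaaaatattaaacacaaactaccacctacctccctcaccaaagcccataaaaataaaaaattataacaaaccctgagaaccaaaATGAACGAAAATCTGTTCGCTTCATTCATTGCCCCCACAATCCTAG
The second stretch is chrM:10749-10777, where the capitals mark the bases read both as the end of ND4L (10470 to 10766) and as the start of ND4 (10760 to 12137).
ND4L and ND4: aacctactccaATGCTAAaactaatcgtc
ND6 is the only protein gene on the other strand (14149 to 14673), and 35.6% of the bases of its mRNA are G, against 6.28% in ATP8. The strand setting of the counting is not given in the sources used here, so reads of ND6 and of RNA from the opposite strand cannot be told apart. The values of ATP8, ATP6, ND4L, ND4 and ND6 are uncertain to that extent. Nuclear copies of mitochondrial DNA also share reads: 363 such pseudogenes were listed, 86 had any count, and together they held 0.634% of the mitochondrial gene counts. Most of that was MTATP6P1, at 52.5 to 66.3 CPM. UQCRH and its near-identical copy UQCRHL are likewise uncertain.

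For the nuclear genes, upstream sequence is shown for 3 members whose level differed between batches in opposite directions while all 3 hold the same motif. RefSeq promoters (GRCh38.p14, 250 bases before to 50 after the start) matched 65 of the 79 coding members. The motifs searched on both strands were GCATGCGC for NRF1 and CCGGAAG for ETS factors; they do not overlap each other in the 3 sequences. The 250 bases before the start are printed 5′ to 3′ on the gene's strand, motifs in capitals. ATP5F1C (gamma subunit of the ATP synthase rotor) is at chr10:7787927-7788176, plus strand; ATP5PF (a peripheral stalk subunit) at chr21:25735055-25735304, minus strand; and COX6A1 at chr12:120437863-120438112, plus strand.
ATP5F1C: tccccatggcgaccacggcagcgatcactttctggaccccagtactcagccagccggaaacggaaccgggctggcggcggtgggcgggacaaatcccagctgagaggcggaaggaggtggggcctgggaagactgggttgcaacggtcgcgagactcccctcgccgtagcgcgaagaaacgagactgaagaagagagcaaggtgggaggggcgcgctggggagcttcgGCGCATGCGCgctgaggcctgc
ATP5PF: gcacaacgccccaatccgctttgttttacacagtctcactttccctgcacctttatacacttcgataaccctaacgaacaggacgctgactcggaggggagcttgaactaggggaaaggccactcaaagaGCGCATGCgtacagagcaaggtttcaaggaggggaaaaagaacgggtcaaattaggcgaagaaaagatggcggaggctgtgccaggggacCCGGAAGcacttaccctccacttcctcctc
COX6A1: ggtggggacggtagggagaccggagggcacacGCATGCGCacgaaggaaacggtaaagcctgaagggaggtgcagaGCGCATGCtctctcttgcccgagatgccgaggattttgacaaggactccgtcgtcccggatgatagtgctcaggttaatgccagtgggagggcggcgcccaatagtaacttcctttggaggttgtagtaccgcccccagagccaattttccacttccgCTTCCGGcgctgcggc
In ATP5F1C the NRF1 letters occur on both strands at overlapping positions starting 22 and 20 bases before the start. ATP5PF has them 120 bases before the start and the ETS letters 30 bases before it, and COX6A1 has NRF1 letters at 218 and 174 bases and ETS letters at 16 bases before it. Over the matched members 13 of 65 promoters (20%) held the NRF1 letters, against 3.27% of all 27305 promoters and 4.26% of those of coding genes. The ETS letters were in 19 (29.2%), against 10.7% and 14.2%, and both motifs were in 6 (9.23%), against 0.685% and 0.966%. A match is a description of the letters, not of a bound site. In complex II, the promoters of SDHB and SDHD held both motifs; in complex III, none of 7 held the NRF1 letters.

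Library sizes were 50.6 to 90.6 M counts. The stellate marker list summed to 3821 to 5665 CPM in each library, with LRAT at or under 0.04 CPM and DES at or under 0.26 CPM, while hepatocyte markers reached at most 2.14 CPM, endothelial 2.26 CPM and macrophage 11.8 CPM. The stellate sum hides opposite differences in batch 3. In batches 1, 2 and 3 of PBS, VIM had 728, 787 and 2813 CPM and COL1A2 34.3, 36.7 and 243 CPM. COL3A1 (494, 485 and 142 CPM) and TIMP1 (224, 203 and 89.8 CPM) went the other way. T cell markers summed to 1.26 to 20.6 CPM, mainly CD4, were lowest in batch 3, and CD2 was at 0 throughout. The part of these small amounts in the results below was not tested. Of the 4 RNAs listed as retained in the nucleus, taken as a side value of RNA handling, the summed level was 1442 to 1753 CPM, lowest in HIV-1 library 2.

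The mitochondrial genes were abundant and unequal. The 13 held between 1.11% and 1.47% of all counts of a library, and the 79 nuclear coding genes together held 0.727% to 0.822%. Per kilobase of gene COX2, a core subunit of complex IV, had the highest mean level at 2442 CPM per kb, and ND1, a membrane subunit of complex I, the lowest at 354 CPM per kb. Between them on this scale came ATP8 (1789), ND4L (1786), COX3 (1462), COX1 (1392), ND6 (1237), ND4 (1192), ND5 (1125), ND3 (1092), CYTB (954), ATP6 (793) and ND2 (470 CPM per kb). The order held in all 9 libraries at only 5 of the 12 steps: COX2 above ATP8, ND4L above COX3, CYTB above ATP6, ATP6 above ND2, and ND2 above ND1. The other neighbours changed places in at least 3 libraries, and their order was not tested. For some of them the change went by batch. ATP8 was above ND4L, COX3 above COX1 and ND6 above ND4 in every library of batches 1 and 2 and below in every library of batch 3. ATP6 and ATP8, although they overlap in sequence, thus differed more than 2-fold per kb, which with overlapping reads is uncertain. In counts rather than per length, COX1 (16.4%), ND5 (15.6%), COX2 (12.8%) and ND4 (12.6%) made up most of the mitochondrial total. Among nuclear genes, per kb of exon, NDUFS5 stood at 371, just above ND1, and further examples were NDUFA1 at 334, ATP5F1B at 206, UQCRH at 168 and COX7C at 144 CPM per kb.

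Summed over complexes, TMM-scaled levels (TMM, a scaling of library totals) showed which genome supplied most of the RNA. Complex I had 6079 CPM from its 7 mitochondrial genes and 2112 CPM from its 36 nuclear ones, and complex IV 4962 CPM from 3 and 1376 CPM from 12. In complex III the single mitochondrial gene, CYTB, at 1082 CPM, was close to the 963 CPM of the 9 nuclear genes. ATP synthase was the other way round, with 909 CPM from ATP6 and ATP8 and 3124 CPM from 18 nuclear genes. Complex II held 350 CPM.

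The question put to the 2 genomes was whether their RNA moved together under HIV-1 and LTA, within each batch. In PBS the summed mitochondrial counts were 1.59, 1.89 and 1.58 times the nuclear ones in batches 1, 2 and 3, and in HIV-1 they were 1.54, 1.38 and 1.62 times. With HIV-1+LTA they were 1.65, 1.77 and 1.79 times. PBS library 2 was the highest and HIV-1 library 2 the lowest of the 9, and the groups PBS and HIV-1 overlapped. As log2 ratios the group means were 0.75 ± 0.15 (SD, n = 3) in PBS, 0.59 ± 0.12 (SD, n = 3) in HIV-1 and 0.80 ± 0.064 (SD, n = 3) in HIV-1+LTA. All 3 HIV-1+LTA libraries lay above all 3 HIV-1 libraries.

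Within batches, the log2 ratio in HIV-1 minus that in PBS was -0.04, -0.46 and 0.03, a mean of -0.16 ± 0.27 (SD, n = 3). The difference was far larger in batch 2 than in the others: the sign was not shared by the batches, and the mean was smaller than its spread. HIV-1+LTA minus HIV-1 gave 0.10, 0.37 and 0.15, a mean of 0.20 ± 0.14 (SD, n = 3), above 0 in every batch; without batch 2 the mean was 0.124. HIV-1+LTA minus PBS gave 0.06, -0.09 and 0.18, a mean of 0.05 ± 0.14 (SD, n = 3), with mixed signs. The comparisons share libraries: a low HIV-1 library 2 enters the first and the second with opposite sign. Less mitochondrial RNA per cell and fewer cells with a given level cannot be told apart in bulk RNA.

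**Figure D1:**
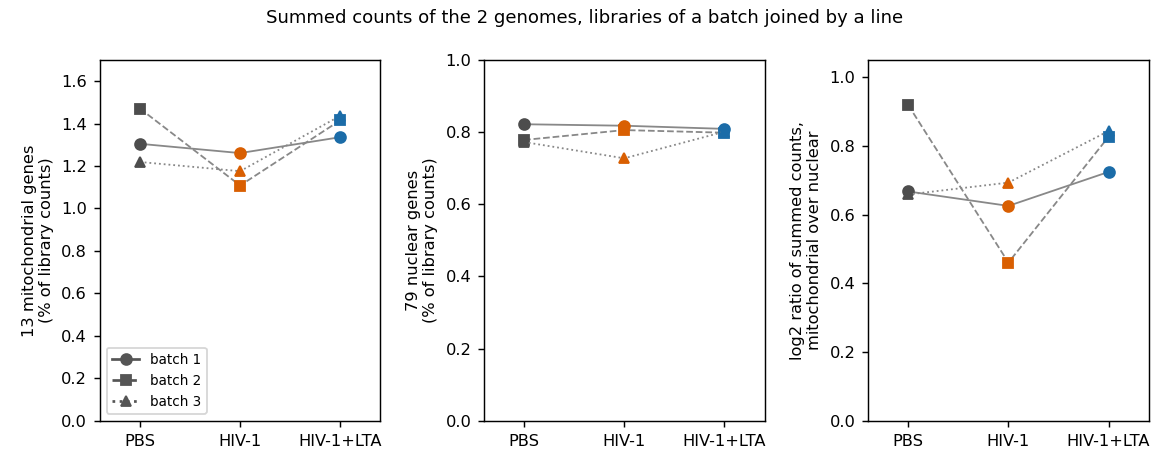
Summed counts of the 13 mitochondrial genes (left) and the 79 nuclear coding genes (middle) as % of library counts, and the log2 ratio of the sums (right), on the y axes; x axes give the groups, each point is 1 library and lines join the libraries of a batch. The nuclear share varied between 0.727% and 0.822%, while the ratio in batch 2 went from 0.92 in PBS to 0.46 in HIV-1 and 0.83 in HIV-1+LTA.

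HIV-1 against PBS asked what the virus alone changed. No member passed at an adjusted p below 0.05 in the edgeR quasi-likelihood test with batch as a block, nor did any of the 16117 genes tested (0%); the lowest adjusted p of a member was 0.946. DESeq2 with the same block called 3 genes of 19990 (0.015%), no member among them. Without a call, the mitochondrial genes still lay on 1 side. All 13 had a log2 fold change below 0, from -0.25 to -0.11 with a median of -0.21, against a median of -0.02 for the nuclear coding genes and 0.00 for all genes. In 12 of 13 HIV-1 was lower in all 3 batches, where 17.1% of all genes were lower and 16.3% higher in all 3. The exception was ND2, which was higher by 0.02 in batch 3. At an unadjusted p below 0.05, 9 of the 13 were lower, beside 1.63% of all genes that were lower and 2.57% that were higher. The mitochondrial mRNAs are cut from shared transcripts and were measured in the same libraries. Such counts are therefore not 13 independent observations.

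The size of the mitochondrial difference was set largely by batch 2. Within batches the median differences were -0.05, -0.43 and -0.13. Without batch 2 the median log2 fold change was -0.089, without PBS library 2 it was -0.11 and without HIV-1 library 2 it was also -0.11. The nuclear coding genes gave batch medians of -0.01, 0.02 and -0.11. They did not share the low level of batch 2, whereas in batch 3 the medians of both genomes were below 0 by similar amounts. The mitochondrial genes are scaled here with all other genes, and leaving them out of the scaling gave the same median of -0.21. In HIV-1 library 2 the RNAs retained in the nucleus were also at their lowest summed level (1442 CPM), but only MALAT1 among them was lowest there (764 CPM). NEAT1 was lowest in HIV-1 library 3 (393 CPM), and MEG3 and KCNQ1OT1 in HIV-1+LTA library 2. The part of these RNAs in the difference was not tested.

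ND6, a complex I subunit and the only member from the opposite strand, had the lowest p. It stood at 740, 745 and 645 CPM in PBS and 648, 585 and 559 CPM in HIV-1, in batch order. PBS was higher in each batch, although the lowest PBS library lay just under the highest HIV-1 library. The log2 fold change was -0.25 (SE 0.058, unadjusted p 0.0010 in edgeR, adjusted p 0.946; DESeq2 adjusted p 0.0756), with -0.19, -0.35 and -0.21 in the 3 batches. Of the 13 it had the largest difference in batches 1 and 3.

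ATP8, a small ATP synthase subunit, was measured at 377, 410 and 398 CPM in PBS and 349, 306 and 358 CPM in HIV-1. COX2 had 1572, 1910 and 1685 CPM in PBS and 1543, 1346 and 1527 CPM in HIV-1. ND5, a proton-pumping subunit of complex I, had 2069, 2283 and 2081 CPM in PBS and 1968, 1696 and 1897 CPM in HIV-1. In these 3 genes alone of the 13 every HIV-1 library was below every PBS library, which held for 1.19% of all genes and for none of the 79 nuclear ones. Their log2 fold changes were -0.23 (SE 0.062), -0.22 (SE 0.082) and -0.21 (SE 0.076), none past the adjusted threshold in edgeR.

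The remaining mitochondrial genes overlapped between PBS and HIV-1. ND1 had 304, 353 and 447 CPM in PBS and 288, 243 and 413 CPM in HIV-1 (log2 fold change -0.24, SE 0.078), with both groups highest in batch 3. COX3, the third core subunit of complex IV, had 1158, 1403 and 1063 CPM against 1138, 975 and 953 CPM (-0.24, SE 0.084). ND3 had the smallest difference, at 349, 364 and 439 CPM against 334, 335 and 399 CPM (-0.11, SE 0.048), and it alone showed no deeper difference in batch 2 than in batch 3. ND4L (-0.22), COX1 (-0.19), ATP6 (-0.17), CYTB (-0.17), ND4 (-0.16) and ND2 (-0.13) lay between.

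**Figure D2:**
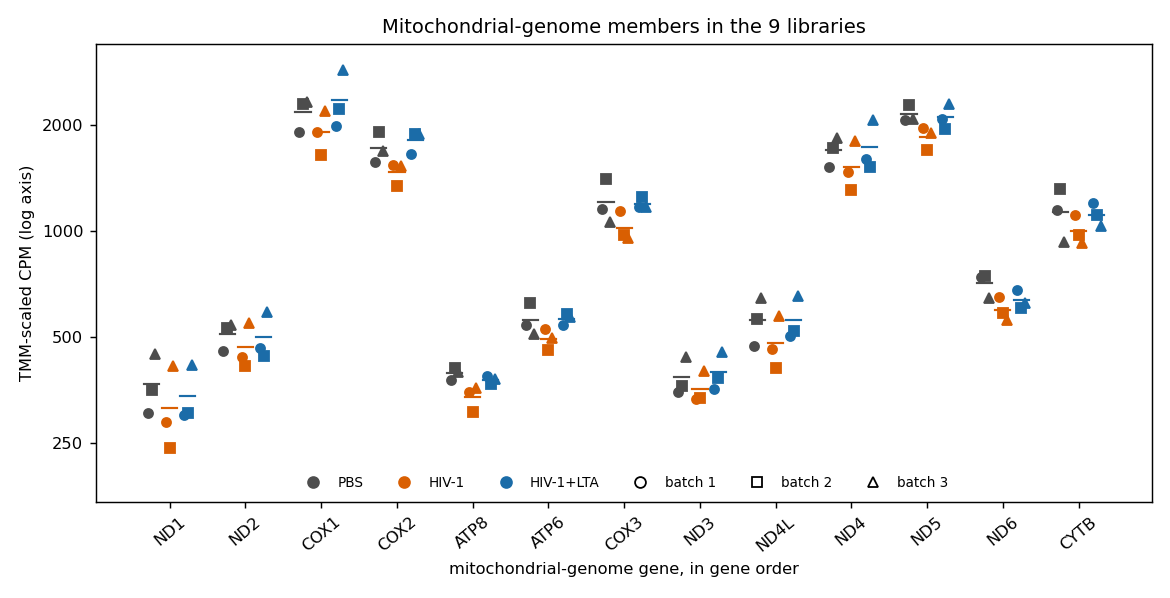
TMM-scaled CPM (y axis, log scale) of the 13 mitochondrial genes (x axis) in the 9 libraries; colours are groups, symbols are batches and short lines are group means. In 9 of 13 genes the lowest point is HIV-1 library 2, and the highest is PBS library 2 or HIV-1+LTA library 3 in 6 genes each.

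The nuclear genes as a whole were spread over both sides of 0 under HIV-1. Of 79, 29 lay above and 50 below 0, within -0.13 to 0.20; 6 were higher and 16 lower in all 3 batches, and none reached an unadjusted p below 0.05. By complex the nuclear medians were 0.00 in I, -0.02 in II, -0.01 in III, -0.06 in IV and -0.06 in V. The last 2 leaned to 1 side: 10 of the 12 nuclear genes of complex IV and 14 of the 18 of complex V were below 0. Batch 3 set most of this. The batch medians were -0.005, 0.004 and -0.18 in IV and -0.04, -0.005 and -0.14 in V. In batch 3 the nuclear medians of I, II and III were also below 0, at -0.07, -0.10 and -0.14. In complex V 8 were lower and none higher in all 3 batches, in complex IV 1 and 1. Among nuclear genes with at least 10 CPM the 4 highest were all of complex I: the accessory subunits NDUFA11 (0.20, SE 0.099), NDUFB7 (0.16) and NDUFB2 (0.08) and the core subunit NDUFV1, which binds NADH (0.11). The 4 lowest were all of ATP synthase: ATP5MJ (-0.13), ATP5MC1, a gene of the c-ring (-0.11), ATP5PO (-0.11) and ATP5MK (-0.11). The nuclear median of -0.02 changed sign without batch 3 (0.010) or HIV-1 library 3 (0.013). HIV-1 was the lowest group for 24, 15 and 51 of the 79 in batches 1, 2 and 3, whereas for the mitochondrial genes it was the lowest for 13, 13 and 12 of 13.

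Succinate dehydrogenase, the complex II enzyme that is also part of the citric acid cycle, had 4 genes whose levels summed to 352 ± 12.3 CPM (SD, n = 3) in PBS, 342 ± 20.9 CPM (SD, n = 3) in HIV-1 and 355 ± 3.54 CPM (SD, n = 3) in HIV-1+LTA. The groups overlapped. In HIV-1 against PBS the log2 fold changes were 0.03 for SDHA, 0.02 for SDHB, -0.10 for SDHC and -0.06 for SDHD.

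HIV-1+LTA against HIV-1 asked what LTA added in cells with virus. In edgeR again no gene of 16117 passed (0%), the lowest adjusted p of a member being 0.187, shared by COX2 and NDUFA3. DESeq2 with the block called 252 of 13014 genes with an adjusted p (1.94%), and these included 2 members, COX2 and COX1, both higher with LTA. These 2 calls thus depend on the tool. All 13 mitochondrial genes had a log2 fold change above 0, from 0.09 to 0.29 with a median of 0.18, and all 13 were higher in all 3 batches (16.7% of all genes were higher and 17.1% lower in all 3). At an unadjusted p below 0.05, 9 of 13 were higher and none lower, beside 8.11% of all genes higher and 7.32% lower. Batch medians were 0.08, 0.27 and 0.19, and without HIV-1 library 2 the median was 0.11. This comparison uses the same HIV-1 libraries as the one above, and here too the 13 are not independent observations.

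COX1, the catalytic core of cytochrome c oxidase, stood at 1908, 1648 and 2193 CPM in HIV-1 and 1991, 2215 and 2867 CPM in HIV-1+LTA. The LTA library was higher in each batch, although the groups overlapped because batch 3 was high in both. The log2 fold change was 0.29 (SE 0.089; adjusted p 0.206 in edgeR and 0.0349 in DESeq2), with 0.06, 0.43 and 0.39 in the 3 batches. COX2, which carries the copper centre that accepts electrons from cytochrome c, had 1543, 1346 and 1527 CPM in HIV-1 and 1656, 1888 and 1883 CPM in HIV-1+LTA. Here the groups did not overlap, and the log2 fold change was 0.29 (SE 0.082; adjusted p 0.187 in edgeR and 0.0179 in DESeq2), with 0.10, 0.49 and 0.30 in the batches.

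COX3, ATP6 and ATP8 were the other mitochondrial genes with every HIV-1+LTA library above every HIV-1 library, 4 of 13 with COX2, against 2.12% of all genes. COX3 had 1138, 975 and 953 CPM in HIV-1 and 1170, 1247 and 1169 CPM in HIV-1+LTA, and its log2 fold change was 0.23 (SE 0.084). In ATP6 the levels were 525, 461 and 498 CPM and then 541, 580 and 571 CPM, and the log2 fold change was 0.19. ATP8 had 349, 306 and 358 CPM, then 388, 367 and 380 CPM, with 0.17. These genes lie next to each other on the mitochondrial genome with COX2. The complex I genes ran from 0.09 for ND6 and 0.10 for ND2 through 0.13 for ND1, 0.15 for ND3, 0.18 for ND4 and 0.19 for ND5 to 0.22 for ND4L, and CYTB had 0.15. As a ratio of summed counts, COX1 to COX3 against the ND genes gave a log2 value of -0.29, -0.33 and -0.40 in HIV-1 and -0.31, -0.10 and -0.26 in HIV-1+LTA. It was higher with LTA in batches 2 and 3 and slightly lower in batch 1.

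**Figure D3:**
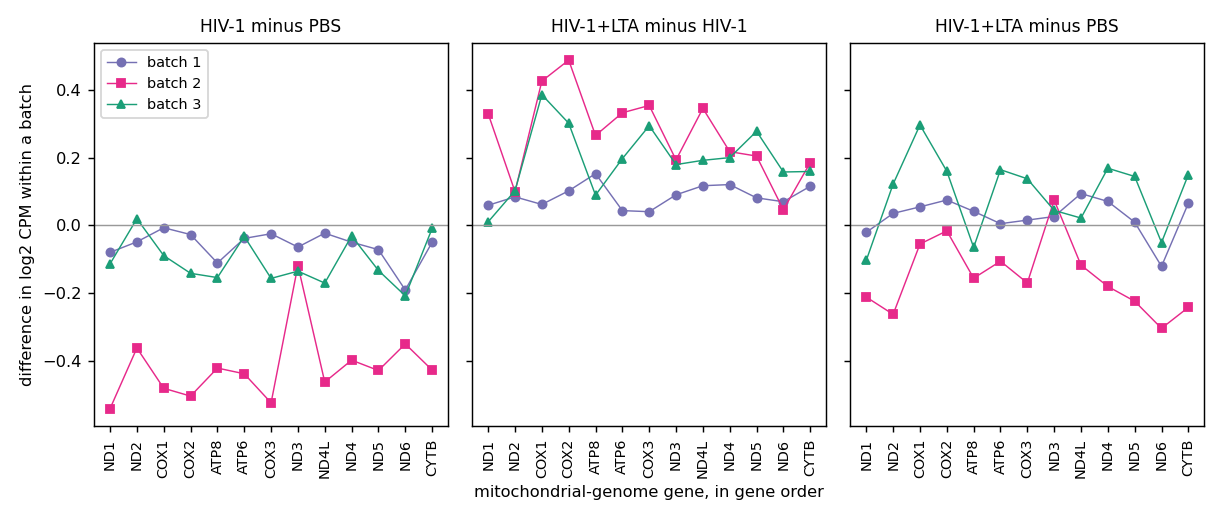
Within-batch differences in log2 CPM (y axis) of the 13 mitochondrial genes (x axis, in genome order) for the 3 treatment comparisons, 1 line per batch. Batch 2 is the lowest for 12 genes in HIV-1 minus PBS; in HIV-1+LTA minus HIV-1 every point is above 0.

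Nuclear genes again lay around 0, 43 above and 36 below with a median of 0.01, which changed sign without batch 3 (-0.042), HIV-1 library 3 (-0.030) or HIV-1+LTA library 3 (-0.021). The nuclear batch medians were -0.01, -0.04 and 0.10, so in batch 3 both genomes were higher with LTA. In this comparison 12 nuclear genes were higher and 7 lower in all 3 batches. At an unadjusted p below 0.05, 5 were higher and 2 lower. NDUFA3, an accessory subunit of complex I, was the highest at 0.31 (SE 0.085; adjusted p 0.187 in edgeR and 0.0557 in DESeq2). Its levels were 24.8, 24.1 and 18.5 CPM in HIV-1 and 26.3, 28.8 and 28.1 CPM in HIV-1+LTA, so the groups did not overlap and the difference was largest in batch 3. Every HIV-1+LTA library was also above every HIV-1 library in UQCR10, a small subunit of complex III (0.18), and in SDHA, the flavoprotein of complex II (0.12). ATP5ME (0.26) and UQCR11 (0.17) were also among the highest, with overlapping groups. At the low end were COX6C (-0.17), ATP5F1B, the catalytic beta subunit of ATP synthase (-0.13), and SDHB, the iron-sulfur subunit of complex II (-0.11). ATP5F1B had 464, 461 and 494 CPM in HIV-1 and 450, 391 and 454 CPM in HIV-1+LTA, so every HIV-1+LTA library was below every HIV-1 library. In all, 3 of the 79 lay above without overlap, beside 2.12% of all genes, and 1 lay below. The share of all genes below was not taken, and neither count is read as a result about the nuclear genes. SDHC was at 0.11 and SDHD at 0.01.

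Batch 1 showed the smallest LTA differences, and calls depended on it. Without batch 1, edgeR called 9.69% of all genes and 8 members, all higher with LTA: COX2 (0.40), COX1 (0.42), COX3 (0.33), ND4L (0.28), ND3 (0.20), NDUFA3 (0.44), SDHC (0.21) and ATP5MC1 (0.21). Without HIV-1+LTA library 1 alone, 14.6% of all genes passed and 11 members with them. Of these 9 were higher (COX1, COX2, ND3, NDUFA3, SDHC, ATP5MC1, COX5B, COX8A and NDUFB1) and 2 lower (COX6C at -0.29 and ATP5F1B at -0.18). With both genomes pooled, the share of members called was thus close to that of all genes in these fits. Of the 13 mitochondrial genes, COX1, COX2, COX3, ND4L and ND3 were called without batch 1, and COX1, COX2 and ND3 without HIV-1+LTA library 1. That is a larger share than over all genes, and the share of the 79 nuclear coding genes was smaller. The 13 are not independent observations, however. Both fits left out batch 1 or a library of it, where the LTA differences were smallest, and the full fit called no gene. Whether the 2 genomes differed in calls was not tested.

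**Figure D4:**
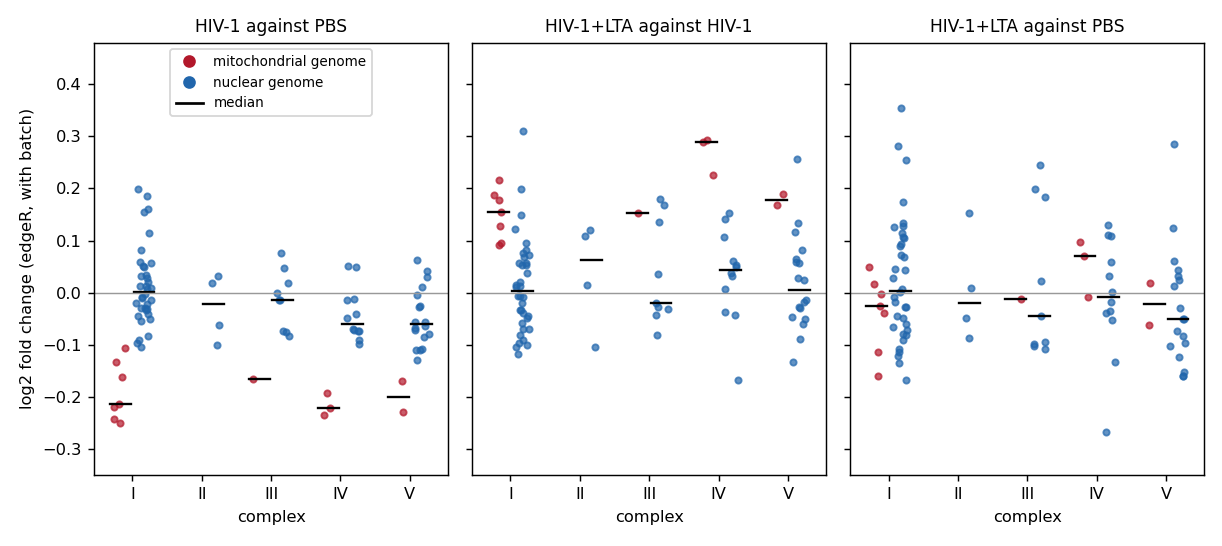
Log2 fold changes from edgeR with batch as a block (y axis) of the 92 coding members by complex (x axis) for the 3 treatment comparisons; each point is a gene, red for the mitochondrial and blue for the nuclear genome, and black lines are medians. In HIV-1 against PBS all 13 red points lie below 0, and in HIV-1+LTA against HIV-1 all lie above it.

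HIV-1+LTA against PBS compared the double treatment with the control. No gene of 16117 passed in edgeR (0%). DESeq2 with the block called 236 of 12239 genes with an adjusted p (1.93%) and no member, and in the authors' deposited table for this comparison 91 members have an adjusted p, the lowest being 0.0698 for COX6C. The mitochondrial genes were split, 5 above and 8 below 0 around a median of -0.01. Only 1 was higher (ND3) and 2 lower (ND6 and ND1) in all 3 batches, beside 17.5% of all genes higher and 16.4% lower. ND6 had 680, 604 and 623 CPM with HIV-1+LTA, against 740, 745 and 645 CPM in PBS. It was lower in each batch with overlapping groups, its log2 fold change was -0.16 (SE 0.058), and it was the only mitochondrial gene at an unadjusted p below 0.05, where 8.67% of all genes were higher and 8.13% lower. COX1 was at 0.10 and COX2 at 0.07. In all 13 the HIV-1+LTA and PBS libraries overlapped.

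Nuclear genes were 38 above and 41 below 0 in this comparison, with 14 higher and 23 lower in all 3 batches and 8 higher and 6 lower at an unadjusted p below 0.05. COX6C, a small cytochrome c oxidase subunit, was at 133, 142 and 140 CPM in PBS and 136, 95.8 and 116 CPM with HIV-1+LTA. Batch 1 did not share the lower level of the others (0.03, -0.57 and -0.27), and the log2 fold change was -0.27 (SE 0.089). ATP5F1B had 474, 457 and 514 CPM in PBS and 450, 391 and 454 CPM with HIV-1+LTA, without overlap (-0.16). NDUFA3 had 23.7, 24.8 and 20.1 CPM and then 26.3, 28.8 and 28.1 CPM, also without overlap (0.28, SE 0.085). NDUFV2 (0.03), UQCR10 (0.20) and ATP5IF1 (0.12) were higher without overlap too. In all, 4 of the 79 lay above and 1 below without overlap. No share of all genes without overlap is given for this comparison, so these counts have no background beside them. SDHA had 84.3, 94.6 and 73.2 CPM in PBS and 93.1, 94.8 and 91.2 CPM with HIV-1+LTA, where the lowest PBS library was in batch 3 (0.15). Of the others with at least 10 CPM, ATP5ME (0.29), NDUFB7 (0.26) and UQCR11 (0.25) were the highest, and NDUFB8 (-0.17) and ATP5MJ (-0.16) among the lowest. Without batch 1 edgeR called 10.7% of all genes and 3 members, NDUFA3 higher (0.35) and COX6C (-0.41) and ATP5F1B (-0.19) lower. Without HIV-1+LTA library 1 it called 16.2% and 10 members. These were NDUFA3, NDUFA13, NDUFA2, UQCR11, COX5B and ATP5ME higher and COX6C, ATP5F1B, ATP5PB and NDUFB8 lower.

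Nuclear members were further apart between batches than between treatments. Their median absolute log2 fold change was 0.05 for HIV-1 against PBS, 0.06 for HIV-1+LTA against HIV-1, 0.09 for HIV-1+LTA against PBS and 0.28 for batch 3 against the others. Batch 3 against batches 1 and 2, in the same edgeR fit, gave 68 members past the threshold, 42 higher and 26 lower in batch 3, where 35.2% of all genes were higher and 36% lower. This comparison was chosen because earlier results of these data had shown batch 3 apart, so its calls and p-values describe a difference already seen. Batch 3 is also only 1 batch, and its 3 libraries are not independent observations of a batch difference. The labels give only a batch number, so culture, RNA preparation and sequencing cannot be told apart. For the mitochondrial members the median absolute log2 fold change of batch 3 against the others was 0.25, and for all genes 0.44. In 5 mitochondrial and 29 nuclear genes the 3 libraries of batch 3 lay above the other 6, and in 20 nuclear genes below them, with 30.6% and 30.2% of all genes doing so.

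Of the mitochondrial genes 6 were higher in batch 3: ND1 by 0.52 (SE 0.066), ND4L by 0.36, ND4 by 0.32, COX1 by 0.30, ND2 by 0.29 and ND3 by 0.28 on the log2 scale. CYTB (-0.25, SE 0.069) and ND6 (-0.13, SE 0.050) were lower. CYTB had 1147, 1314 and 930 CPM in PBS, 1107, 977 and 924 CPM in HIV-1 and 1200, 1111 and 1032 CPM in HIV-1+LTA, lowest in batch 3 of each group. ND1 was highest in batch 3 of each group, with 447, 413 and 416 CPM there against 243 to 353 CPM in the other 6. COX3, ND5, ATP8, COX2 and ATP6 did not pass. The 13 thus differed among themselves between batches, while the mitochondrial to nuclear log2 ratio differed by -0.13, 0.15 and 0.07 in PBS, HIV-1 and HIV-1+LTA.

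In complex II, where all subunits are needed for the enzyme, the 4 genes went apart. SDHD had 69.1, 65.6 and 96.8 CPM in PBS, 68.1, 66.4 and 85.2 CPM in HIV-1 and 65.5, 65.2 and 92.9 CPM in HIV-1+LTA, highest in batch 3 of each group without overlap (0.46). SDHC, which anchors the enzyme in the membrane with SDHD, had 155, 136 and 104 CPM, then 146, 131 and 92.3 CPM, then 139, 151 and 107 CPM, lowest in batch 3 (-0.50). SDHB was higher (0.21) and SDHA lower (-0.18). All 4 passed.

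ATP synthase showed the widest range. ATP5ME, a membrane subunit, had 82.5, 98.7 and 35.2 CPM in PBS, 89.99, 93.4 and 36.6 CPM in HIV-1 and 94.96, 97.8 and 56.5 CPM in HIV-1+LTA, lower in batch 3 by a log2 fold change of -1.14 (SE 0.098). ATP5F1C, whose upstream sequence is printed above, had 117, 115 and 204 CPM, then 117, 114 and 181 CPM, then 119, 103 and 184 CPM (0.73, SE 0.047). ATP5PF, also printed, had 152, 130 and 85.7 CPM, then 145, 130 and 75.03 CPM, then 147, 139 and 77.6 CPM (-0.82). The gamma subunit was thus high and the stalk subunit low in batch 3 of every group, without overlap. Another stalk subunit, ATP5PO, was also lower (-0.89), whereas ATP5PB (0.37) and ATP5PD (0.23) of the same stalk were higher. The catalytic subunits ATP5F1B (0.12) and ATP5F1A (-0.08, not past the threshold) differed little. Of 18 nuclear genes of complex V, 9 were higher and 5 lower.

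In the other complexes COX7A2L, which takes part in joining complexes into supercomplexes, was the most raised in batch 3, at 82.1, 75.8 and 150.5 CPM in PBS, 83.8, 75.6 and 133.6 CPM in HIV-1 and 78.3, 81.2 and 147.4 CPM in HIV-1+LTA (0.86, SE 0.049, adjusted p 1.77e-08 in edgeR). COX7A2, its close relative, was lower (-0.56), as was COX6A1 (-0.79), and COX7C was higher (0.54). Complex IV had 4 nuclear genes higher and 3 lower of 12, complex III 4 and 4 of 9, with UQCR11 (-0.93) and UQCRC1 (-0.58) the lowest, and complex I 17 and 10 of 36, from NDUFC2 (0.63) to NDUFS7 (-0.96). NDUFB1 (-0.81), NDUFV3 (-0.81) and NDUFA11 (-0.74) were also among the lowest, and NDUFS1, the complex I nuclear gene with the highest level (266 CPM), was higher (0.46). Promoters with the motifs had no common direction: among the 13 with the NRF1 letters 5 genes were higher and 5 lower, among the 19 with the ETS letters 9 and 6, and among the 39 with neither 16 and 13.

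**Figure D5:**
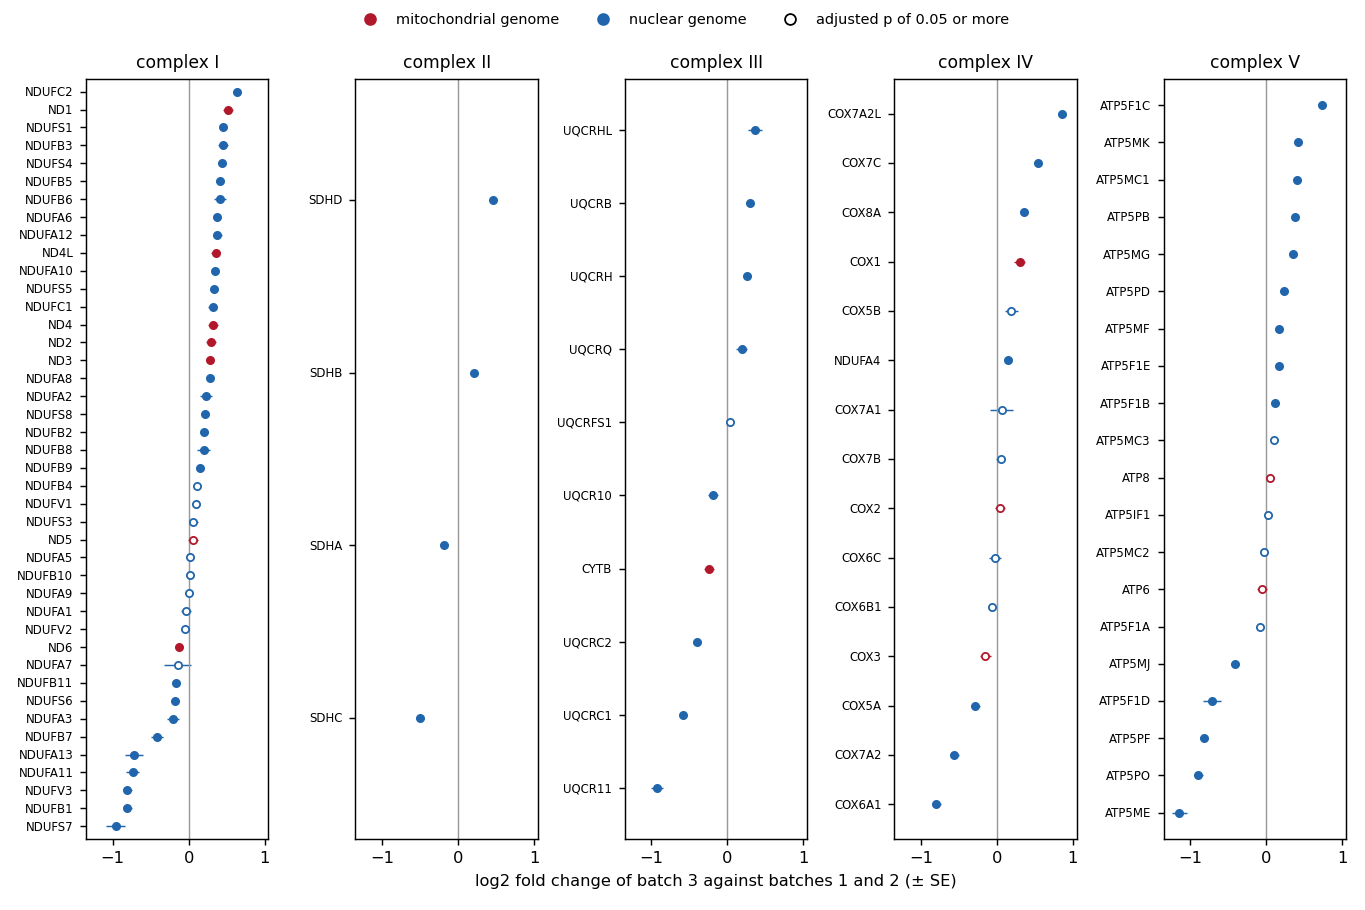
Log2 fold change of batch 3 against batches 1 and 2 with its SE (x axis) for the coding members (y axis, 1 gene not shown), by complex; red is the mitochondrial and blue the nuclear genome, and open points have an adjusted p of 0.05 or more in edgeR. Values run from -1.14 for ATP5ME to 0.86 for COX7A2L, and every complex has genes on both sides of 0.

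Genes that build or regulate the chain were listed too. None of the 47 tested assembly factors, 31 genes of mitochondrial DNA expression, 12 regulators, 12 genes of mitophagy and mitochondrial dynamics or 4 subunits missed by symbol passed in edgeR in a treatment comparison. In DESeq2 with the block BNIP3L, a mitophagy receptor, was higher in HIV-1+LTA than in HIV-1 (0.23, SE 0.058, adjusted p 0.0320), and CYCS, cytochrome c, was lower in HIV-1+LTA than in PBS (-0.23, adjusted p 0.0415). CYCS had 208, 202 and 209 CPM in PBS and 200, 175 and 176 CPM with HIV-1+LTA, without overlap. The genes of mitochondrial DNA expression lay mostly below 0 in HIV-1+LTA against HIV-1, 28 of 31 with a median of -0.06 (batches 0.01, -0.21 and -0.10), while the mitochondrial mRNAs lay above it. Over all genes 8239 of 16117 lay below 0, and the quartiles were -0.098 and 0.107. Assembly factors (30 of 47 below) and regulators (9 of 12) leaned the same way, and genes of mitophagy and dynamics (5 of 12) did not. A link to the mitochondrial mRNAs was not tested. Under HIV-1 alone 15 of the 31 genes of mitochondrial DNA expression were above 0 and 16 below. In batch 3, 16 of these 31 were higher and 6 lower, with REXO2, an oligoribonuclease, at 1.12. Of the 12 regulators 6 were higher and 4 lower. Beside these counts, 35.2% of all genes were higher and 36% lower in batch 3, so they are not read as a result about either list. GABPB1, a subunit of GABP, was higher (0.75) and GABPA, its DNA-binding subunit, lower (-1.16); MYC was the highest (0.85) and PPARGC1A, a transcriptional coactivator, the lowest (-3.19). NRF1 itself did not pass (0.02).

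The ChIP-seq list for the HIV-1 sample held 166 peaks, and none was on the mitochondrial chromosome. No coding member had a peak in the gene or within 10 kb of its start. The antibody is not given in the sources used here, and the share of all genes near a peak was not taken. The lack of peaks is therefore not a result about the members. One peak, at hg19 chr18:9136252-9136455 (204 bases), lay in NDUFV2-AS1, a noncoding RNA on the minus strand (9121177 to 9136643), with its centre 290 bases downstream of the RNA's start. NDUFV2-AS1 was at 1.23 CPM on average and its log2 fold change in HIV-1 against PBS was -0.10 (SE 0.24). The other noncoding RNA, NDUFA6-DT, had 1.07 CPM and 0.18 (SE 0.27). Neither passed in any comparison in edgeR.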

How the data were processed

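RNA-seq counts of 9 LX-2 libraries and 1 ChIP-seq peak list were used. Per the submitters' processing notes, fastp, STAR, SAMtools and HTSeq, and for ChIP-seq Bowtie2, bedtools and deepTools, were run on hg19; versions and the strand setting are not given in the sources used here. Raw whole-number counts by gene symbol were deposited by the authors, 50.6 to 90.6 M per library. A DESeq2 table was deposited too, holding per gene the mean signal, log2 fold change with SE, Wald score and p-value (raw and adjusted); it matched a fit with batch and group for HIV-1+LTA against PBS within 0.01 in all 19990 genes. The deposited peak list gives positions only.

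Testing used edgeR 4.0.16 (quasi-likelihood, R 4.3.3) with batch as a block plus group, TMM scaling and filterByExpr, in 1 fit of 9 libraries. Benjamini-Hochberg adjustment ran over 16117 genes and the threshold was 0.05; unadjusted p is named where used. SE is the fold change divided by the root of F. DESeq2 1.42.0 (total count 10 or more per gene), limma-voom (limma 3.58.1), no block, other scalings and filters, and leaving out each batch or library were alternatives. Within-batch differences use log2 CPM with TMM and a prior count of 2. Sums over members and the ratio of the genomes have no test. Tests were checked on simulated data.

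The replicate number is the batch number in the labels, so numbers pair libraries. Deviations from group means correlated at 0.82 to 0.98 within a batch and at -0.94 to 0.89 between batches; values for batches 1 and 2 overlap, so the pairing rests on the labels. No libraries were copies. All 13 mitochondrial genes are named; of nuclear genes, those called (the 10 largest changes), the 4 highest and lowest with at least 10 CPM, the SDH genes, the most abundant of each complex, and neighbours of the threshold. Genes given as called without batch 1 or 1 library, UQCR10, NDUFV2, ATP5IF1 and the further ATP synthase subunits in batch 3 were named after their values were seen. Members, lists and the comparison of batch 3 with the other batches were chosen with earlier results of these data known. The individual values of 1 nuclear gene are not reported here.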

Additional observations from a re-analysis of the deposited data

How the results depend on the processing

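Without the replicate block 0 members passed in each treatment comparison, the same as with it, and the mitochondrial medians were -0.21 for the virus alone against PBS, 0.18 for HIV-1+LTA against HIV-1, then -0.015 for HIV-1+LTA against PBS. For HIV-1+LTA against HIV-1 the number of members called was 2 in DESeq2 with the block and 0 to 11 when a batch or library was left out. For HIV-1+LTA against PBS it was 0 to 10. In HIV-1 against PBS it was 0 in each alternative run. The cause of these differences was not tested. With a batch or library left out, the mitochondrial median ranged from -0.286 to -0.089 for HIV-1 against PBS and from 0.111 to 0.222 when LTA was added to virus. For HIV-1+LTA against PBS it ranged from -0.0665 to 0.0954. The nuclear medians, all near 0, changed sign in each treatment comparison: they ranged from -0.051 to 0.013 for HIV-1 against PBS, from -0.042 to 0.049 with LTA added to virus, and from -0.0376 to 0.0058 (without PBS library 3) for the double treatment against PBS; the cause was not tested. Leaving out a batch, the mean log2 ratio of the genomes ran from -0.25 to -0.0037 for HIV-1 against PBS, from 0.124 to 0.258 with LTA added to virus, and from -0.018 to 0.121, with a change of sign, for the double treatment against PBS. Members called between batches numbered 56 to 71. With 3 libraries a group, differences of the size seen in the mitochondrial genes (about 0.2 on the log2 scale) were near the spread between batches.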
